A study of Equus caballus with 6 samples.

Results

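The genes described here are 5 horse genes of the B cell lineage and of the cytokine axis that keeps B cells alive: PAX5, FCER2, TNFRSF13C, TNFSF13B and CD40. Members were chosen as the array probes whose identifier is a RefSeq transcript of one of these genes, which gave 16 probes in 20 spots, of 43603 probes in 43803 spots on the array. They are 5 of 870 genes that could be paired with a probe through a RefSeq transcript. The rule itself holds no threshold on a measured value, but the genes were picked with earlier results of these data known.

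RNA came from leukocytes of the buffy coat, the white layer between plasma and red cells in centrifuged blood, of 3 neutered male warmblood horses. Blood of every horse was sampled once before and once after the exercise, which makes 3 arrays a group, paired by horse number. The horses are numbered 1, 2 and 4 in the labels, which give their ages as 11, 7 and 15 years, while the series text gives a range of 9 to 17 years. The labels of the samples after exercise carry 60 min, and the protocol has blood drawn directly before and directly after the exercise, so the time of the second draw is not settled. No breed other than warmblood, genotype or drug is given, and the exercise itself is not described. The buffy coat is a mixture of all white cells with some platelets and red cells. In such bulk RNA, fewer cells of a type and less RNA per cell cannot be told apart.

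BAFF, the product of TNFSF13B, is a cytokine made mainly by monocytes, neutrophils and dendritic cells. It binds the BAFF receptor, the product of TNFRSF13C, on mature B cells and sustains their survival through the non-canonical NF-kB pathway. CD40 is a related receptor on B cells, monocytes and dendritic cells that receives help from T cells through CD40 ligand. FCER2 encodes CD23, the low-affinity receptor for IgE, found on mature B cells and on some myeloid cells. PAX5 is the transcription factor that commits cells to the B lineage and holds them there.

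Levels are given as the log2 of the spot signal minus the 75th percentile of all non-control spots of the same array, so 0 is the level of a spot at that percentile. Levels of different probes are not set against each other, since probes differ in how well they hybridise. The arrays lay on 2 slides: the samples of horses 1 and 2 before exercise on slide 2, and the other 4 on slide 1. The changes of horses 1 and 2 therefore also hold any difference between slides, and the change of horse 4 lies within slide 1. Between 64.1% and 69.4% of the non-control spots of an array were well above background, and 0 member spots were saturated or marked as outliers. Precision is limited by having 6 arrays.

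The B cell label rests on few genes. Of 10 defining B cell markers listed, PAX5, FCER2 and TNFRSF13C could be named on the array, and the others were not analysed here. The 3 named markers were well above background on all 6 arrays, with PAX5 and TNFRSF13C at low signals and FCER2 at a high one. CD40 and TNFSF13B are made by myeloid cells as well, so their levels do not belong to B cells alone.

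After exercise, 0 of the 5 genes and 0 of their 16 probes passed the test in limma at an adjusted p under 0.05, beside 0 of 29570 probes over the whole array (0%). At an unadjusted p under 0.05 stood 0 of the 16 probes, against 855 of all probes (2.89%), and again 0 of the 16 with the horse as a block, against 6.08%. The mean level after exercise was lower for 4 of the 5 genes and higher for FCER2. Over all probes 43.1% had a lower mean. The BAFF receptor gene was the member with the smallest p and had lower values in all 3 horses. CD40 and PAX5 had lower values in horses 1 and 2 and higher ones in horse 4, and TNFSF13B had the opposite pattern. The plot of member levels by array shows these patterns side by side.

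**Figure D1:**
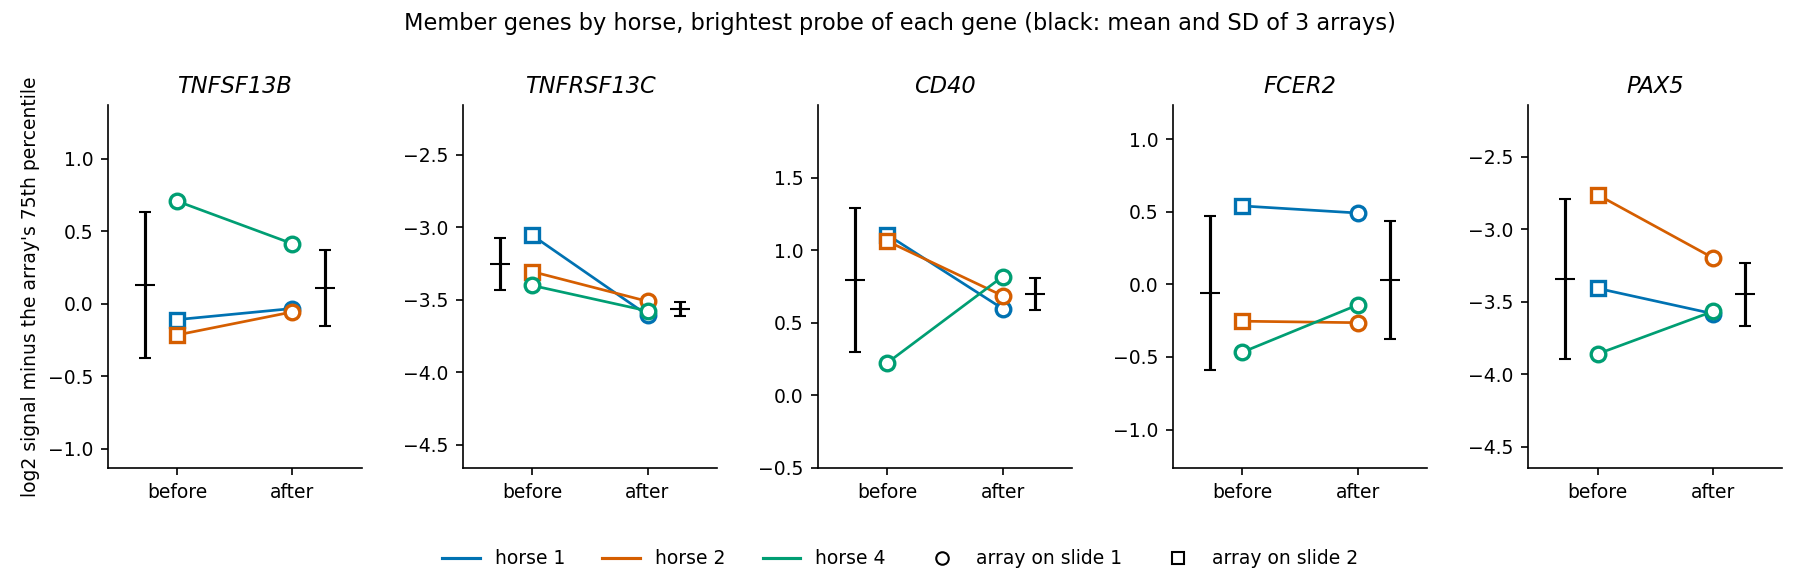
Level of each member gene (log2 signal minus the array's 75th percentile, brightest probe of the gene) before and after exercise. Lines join the 2 arrays of a horse, circles and squares mark slides 1 and 2, black bars give the mean and SD of 3 arrays, and every panel spans the same number of log2 units. TNFRSF13C lies below its earlier level in each horse, CD40 and PAX5 cross between horses, and TNFSF13B stays highest in horse 4.

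The ligand of the axis, TNFSF13B, differed more between horses than with exercise. Before exercise its brightest probe stood at -0.11 in horse 1, -0.21 in horse 2 and 0.71 in horse 4. After exercise the same probe stood at -0.03, -0.06 and 0.41. Both arrays of horse 4 lay above the other 4, and the groups before and after overlapped fully. The mean change was -0.02 (SE 0.30, n = 3 against 3), with a 95% interval of the limma fit from -0.73 to 0.69 and an adjusted p of 1 in limma.

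Within the horses, TNFSF13B changed by 0.08 in horse 1, 0.16 in horse 2 and -0.29 in horse 4. All 3 probes of the gene had these signs: 0.08 to 0.13 in horse 1, 0.10 to 0.21 in horse 2 and -0.40 to -0.29 in horse 4. Of all probes, 24.1% had this pattern of 2 rises and a fall in horse 4. With 1 pair of arrays a horse, the difference between the horses' changes could not be tested. With normexp background correction the value of horse 1 turned to -0.06, while those of horses 2 (0.07) and 4 (-0.34) kept their signs.

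Across horses, the mean of TNFSF13B over both arrays was -0.07 in horse 1, -0.14 in horse 2 and 0.56 in horse 4. The difference of horse 2 from horse 4 was -0.70 (SE 0.21) and that of horse 1 from horse 4 was -0.63 (SE 0.21). The test between horses, a moderated F-test of limma with exercise in the model, had an unadjusted p of 0.0458 and an adjusted p of 0.31, and the gene did not pass. The other probes of the gene had adjusted p of 0.35 and 0.27 in the same test. That test called 70 of 29567 probes (0.237%). With slide as a further block, where horse 4 rests on 1 array, the unadjusted p of TNFSF13B was higher. A level in horse 4 above all other arrays was found for 16.6% of all probes.

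Markers of BAFF-making cells were not level across the horses. Of 16 monocyte genes listed, 7 were measured, and the sum of their linear levels was 90.6 and 103.7 before and after exercise in horse 4, against 48.9 and 71.8 in horse 1 and 37.7 and 58.5 in horse 2. The sum ranged from 37.7 to 90.6 before and from 58.5 to 103.7 after exercise, and all 7 were well above background on the 6 arrays. TIMP1 made up most of this sum. Without it the sum of the other 6 was 26.9 and 17.0 in horse 4, 21.9 and 34.0 in horse 1 and 12.03 and 21.6 in horse 2, so that horse 4 was the highest before and the lowest after exercise. TLR4, the endotoxin receptor, changed by 0.32, 0.94 and -0.47 in horses 1, 2 and 4, with the signs of TNFSF13B. TIMP1, an inhibitor of matrix proteases, changed by 0.49, 0.53 and 0.45, and CD68, a lysosomal protein of macrophages, by 0.76, -0.44 and 0.48, and neither had those signs in all 3 horses. In all, 4 of the 7 monocyte genes had higher values in horses 1 and 2 and a lower one in horse 4, as TNFSF13B did, beside 24.1% of all probes. Of the other BAFF-making cells, the same held for 1 of 3 neutrophil genes and 0 of 3 dendritic cell genes. It also held for 5 of 7 NK and cytotoxic cell genes and 2 of 3 T cell genes. Of 16 neutrophil genes listed, 3 were measured, and their sum ranged from 13.2 to 23.9 before and from 18.1 to 23.9 after exercise. The part of these cell types in the TNFSF13B values was not tested.

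The receptor for BAFF, TNFRSF13C, was the only member whose groups did not overlap. Its probe stood at -3.06, -3.31 and -3.40 before exercise in horses 1, 2 and 4, and at -3.61, -3.51 and -3.58 after. Every array after exercise lay below every array before, which held for 3.8% of all probes, and groups apart in either direction for 7.31%. The gap between the groups was small, from -3.40 to -3.51. The 3 arrays after exercise lay close together (SD 0.05, against 0.18 before). Those after were all on slide 1 and those before on 2 slides, so the larger SD also holds any difference between slides.

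The mean change of TNFRSF13C was -0.31 (SE 0.18), a fold of 0.81 after over before, with an unadjusted p of 0.13 and an adjusted p of 0.999 in limma. The 95% interval ran from -0.74 to 0.12, and with the horse as a block from -0.75 to 0.13 (SE 0.17). The change was -0.55 in horse 1, -0.20 in horse 2 and -0.18 in horse 4. A lower value in all 3 horses was found for 11.5% of all probes. The change of horse 4 turned to 0.14 with normexp background correction, where those of the others were -0.70 and -0.25.

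The signal of the TNFRSF13C probe was low. It ranged from 165.9 to 256.4 before and from 94.2 to 197.1 after exercise in scanner units, and was well above background on all 6 arrays. The gene has 1 probe on the array, so no other probe bears on its value. With array weights, which ranged from 0.219 to 15.3, the change was -0.47 and the adjusted p 0.066 in limma, the lowest over its 22 alternatives. The estimate of these weights stopped before it converged, so that value is uncertain. Of all probes, 5.54% passed in that fit. Within slide 1, where only horse 4 has an array before exercise, the value was -0.16. Between horses its means were -3.33, -3.41 and -3.49, with an adjusted p of 0.87 in limma's F-test.

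CD40 changed in opposite directions in different horses, with the widest gap between horses of the 5 genes. Before exercise its brightest probe stood at 1.11 in horse 1, 1.06 in horse 2 and 0.22 in horse 4. After exercise it stood at 0.60, 0.69 and 0.82. The horse with the lowest level before exercise thus had the highest after it. The SD of the 3 arrays was 0.50 before and 0.11 after exercise. The arrays before exercise lay on 2 slides, with horse 4 apart from horses 1 and 2, and those after all lay on slide 1. Differences between horses and between slides cannot be told apart in the levels before exercise.

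The change of CD40 was -0.51 in horse 1, -0.38 in horse 2 and 0.59 in horse 4. This put it near the 15th and 20th percentile of all probes in horses 1 and 2 and near the 93rd in horse 4. Lower values in horses 1 and 2 with a higher one in horse 4 were found for 19.5% of all probes. The mean change was -0.10 (SE 0.28), with a 95% interval from -0.76 to 0.56 and an adjusted p of 0.999 in limma. Without the horse 4 array before exercise the change was -0.38 (SE 0.17, adjusted p = 0.32 in limma). Set against that array alone, the 3 arrays after exercise were higher by 0.48. The sign also turned without the horse 1 array before exercise (0.057) and without the horse 2 array before exercise (0.035).

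The unscaled signal of CD40 in horse 4 was nearly level, at 2047 before and 1982 after exercise. The 75th percentile of that horse's arrays fell by 0.64 on the log2 scale between both samples, so the higher value of CD40 is one relative to the other probes of the array. In horse 1 the percentile moved by 0.12 and in horse 2 by -0.18. Quantile normalization gave 0.55 for CD40 in horse 4, and scaling to the array median gave 0.62. The changes of horses 1 and 2 were -0.52 and -0.39 with quantile normalization.

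The 5 probes of CD40 were alike in horse 4 and unlike in the others. In horse 4 they changed by 0.56 to 0.59, with an SD across probes of 0.01. In horse 1 they ranged from -0.56 to -0.22 (SD 0.14) and in horse 2 from -0.40 to -0.02 (SD 0.16). Because of this spread, the mean change was between -0.14 and 0.11 depending on the probe. It was below 0 for 3 probes, above 0 for the others, and -0.02 for the mean of the 5. The plot of changes by probe shows the 5 values of each horse.

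**Figure D2:**
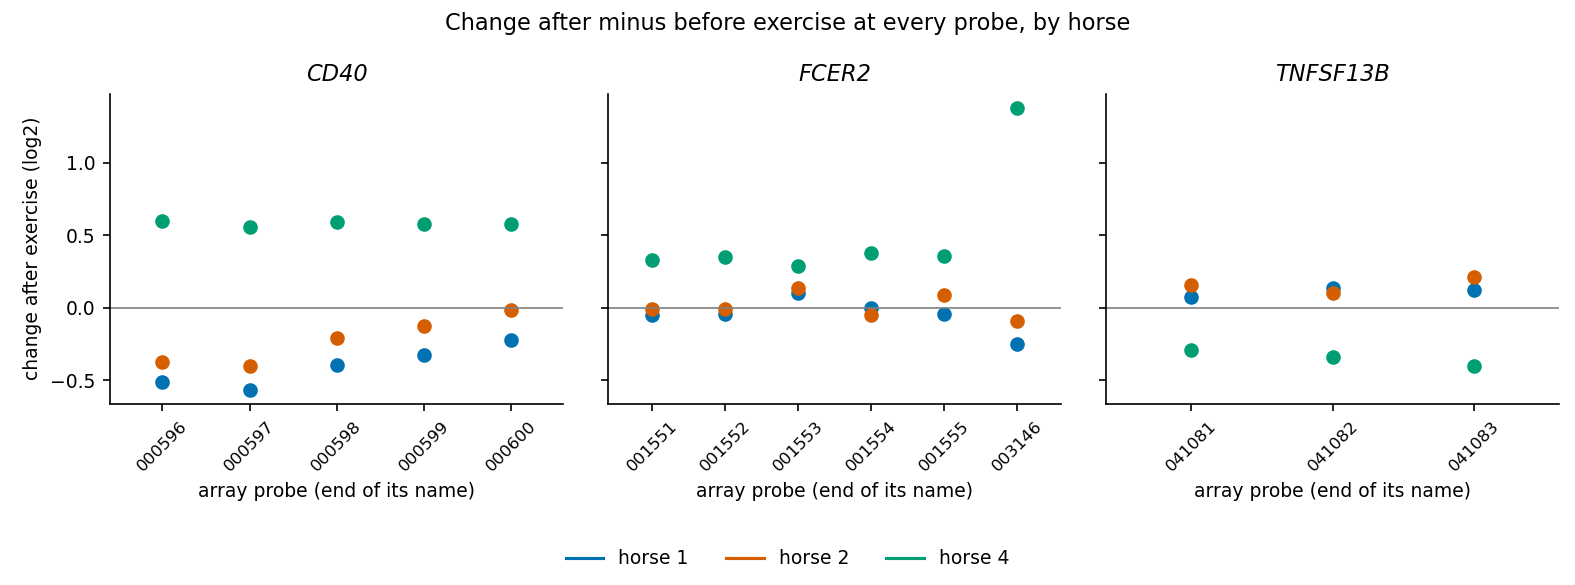
Change after minus before exercise (log2) at every probe of the 3 member genes with several probes; each point is 1 probe in 1 horse, coloured by horse. The CD40 points of horse 4 lie in a line at 0.56 to 0.59 while those of horses 1 and 2 spread, and the FCER2 probe at the right end is the dim one.

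The same contrast between horses was present over the array. Among 213 genes with several probes well above background on all 6 arrays, the median SD of a change across the probes of a gene was 0.12 in horse 1, 0.11 in horse 2 and 0.07 in horse 4. It was smallest in horse 4 for 115 genes (54%). FCER2 (0.06, 0.08 and 0.03, over 5 bright probes) and CD40 were among them. The 3 probes of TNFSF13B had SDs of 0.03, 0.05 and 0.05. The pairs of horses 1 and 2 span both slides and the pair of horse 4 does not, and whether slide or horse goes with the spread cannot be told apart here.

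FCER2, the IgE receptor gene, was steady within horses 1 and 2 and differed between horses. Its brightest probe stood at 0.54 before and 0.49 after exercise in horse 1. In horse 2 it stood at -0.25 and -0.26, and in horse 4 at -0.47 and -0.14. Horse 1 was above all other arrays at both times, a pattern found for 5.87% of all probes. The groups before and after exercise overlapped. The mean change was 0.09 (SE 0.34), with a 95% interval from -0.71 to 0.89 and an adjusted p of 0.999 in limma. When horses were blocked, the estimate was the same with an SE of 0.17, an interval from -0.35 to 0.53 and an adjusted p of 0.89 in limma.

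This probe was printed in 5 spots, which gives the measurement error within an array. The SD across its spots was between 0.04 and 0.09 on the 6 arrays. Spot by spot, the change ranged from -0.09 to 0.01 in horse 1, from -0.07 to 0.04 in horse 2 and from 0.27 to 0.39 in horse 4. Only in horse 4 did all 5 spots lie on the same side of 0. The unscaled signal of FCER2 in horse 4 nevertheless went from 1270 to 1021, so this higher value too is relative to the array. Without scaling the change in horse 4 was -0.32.

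The probes of FCER2 fell into 5 bright ones and a dim one. The bright probes had mean changes between 0.09 and 0.18 and changed by 0.29 to 0.38 in horse 4. The dim probe, A_69_P003146, had signals from 14.6 to 29.5 against 912 to 2750 for the others. Its spot was clearly detected on 1 array from before and 2 from after the exercise, and its change of 1.38 in horse 4 starts from a spot that was not well above background. It therefore adds no measure of the gene's change.

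Between horses the mean of FCER2 was 0.52 in horse 1, -0.26 in horse 2 and -0.30 in horse 4. Horse 1 was higher than horse 2 by 0.78 (SE 0.20) and than horse 4 by 0.82 (SE 0.20). The 5 bright probes had unadjusted p between 0.018 and 0.022 in limma's F-test between horses, and adjusted p between 0.24 and 0.26. The gene did not pass. With slide as a further block the test equals one without the horse 4 array before exercise, so that horse 4 rests on 1 array. The unadjusted p of FCER2 was then lower and that of TNFSF13B higher, and neither gene passed. At an unadjusted p under 0.05 stood 15.5% of all probes.

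PAX5, the lineage factor, was among the dim members. It stood at -3.41, -2.76 and -3.86 before exercise in horses 1, 2 and 4, and at -3.58, -3.20 and -3.57 after. Horse 2 was highest at both times, and the groups overlapped. Its signal was between 94.9 and 373.7 scanner units. The change was -0.17 in horse 1, -0.43 in horse 2 and 0.29 in horse 4. The unscaled signal in horse 4 went from 120.7 to 94.9, so its higher value is relative to the array.

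The mean change of PAX5 was -0.11 (SE 0.31), with a 95% interval from -0.84 to 0.63 and an adjusted p of 0.999 in limma. When horses were blocked, its SE was 0.20 and its interval ran from -0.65 to 0.44. Its direction did not hold over the settings: it was 0.07 with normexp background correction and 0.41 within slide 1, against the 1 array before exercise there. Horse 2 was above horse 4 by 0.73 (SE 0.25) and above horse 1 by 0.52 (SE 0.25). In the F-test between horses the unadjusted p was 0.082 and the adjusted p 0.37 in limma. Both arrays of horse 2 above the other 4 were found for 10.7% of all probes. PAX5 has 1 probe on the array.

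Relative to the array, the 5 genes did not share a sign of change in any horse, and movement as a set was not tested. PAX5 and TNFRSF13C had the same sign in horses 1 and 2 and opposite signs in horse 4. This pattern of the 2 dim probes depended on the background correction. With normexp, PAX5 and TNFRSF13C had opposite signs in horse 1 (0.07 and -0.70) and the same sign in horse 4 (0.35 and 0.14). FCER2 changed by -0.05 and -0.01 in horses 1 and 2, where CD40 changed by -0.51 and -0.38. In horse 4, PAX5, FCER2 and CD40 had higher values (0.29, 0.33 and 0.59) and both genes of the BAFF axis had lower ones (-0.29 for TNFSF13B and -0.18 for TNFRSF13C). These are relative to the array, since without scaling all 5 genes were lower after exercise in horse 4. The median change of the 5 genes was -0.17 in horse 1, -0.20 in horse 2 and 0.29 in horse 4. Over all probes the medians were 0.02, 0.10 and 0.004.

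The fit and the arrays used set the sign for 4 of the 5 genes. Slide 1 holds 1 array before exercise, that of horse 4, so a value within it shows how the 3 arrays after exercise stand to that array and is no replicated test. There the value was lower after exercise for 2 genes, TNFSF13B at -0.60 and TNFRSF13C, and higher for the others, with FCER2 at 0.50. Without the horse 4 array before exercise, TNFSF13B was at 0.27 (SE 0.22) and FCER2 at -0.11 (SE 0.34), while PAX5 was at -0.36 (SE 0.26). Without that array every sample before exercise is on slide 2 and every sample after it on slide 1, and exercise and slide cannot be told apart. TNFRSF13C alone had a lower mean in all 22 alternatives, from -0.47 to -0.16, and passed the test in 0 of them. The alternatives share arrays, and several rest on that 1 array. Several others could not move its estimate of -0.31, such as the filters, outlier spots kept, the horse as a block and the mean of all probes. The count of 22 is therefore no measure of how firm the sign is. Of all probes, 0.446% passed with slide as a block, 0.413% in slide 1 alone, 0.396% with horse and slide as blocks and 2.01% without the horse 4 array before exercise, and 0 of the 5 genes did. The plot of changes under 4 fits sets these values beside each other.

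**Figure D3:**
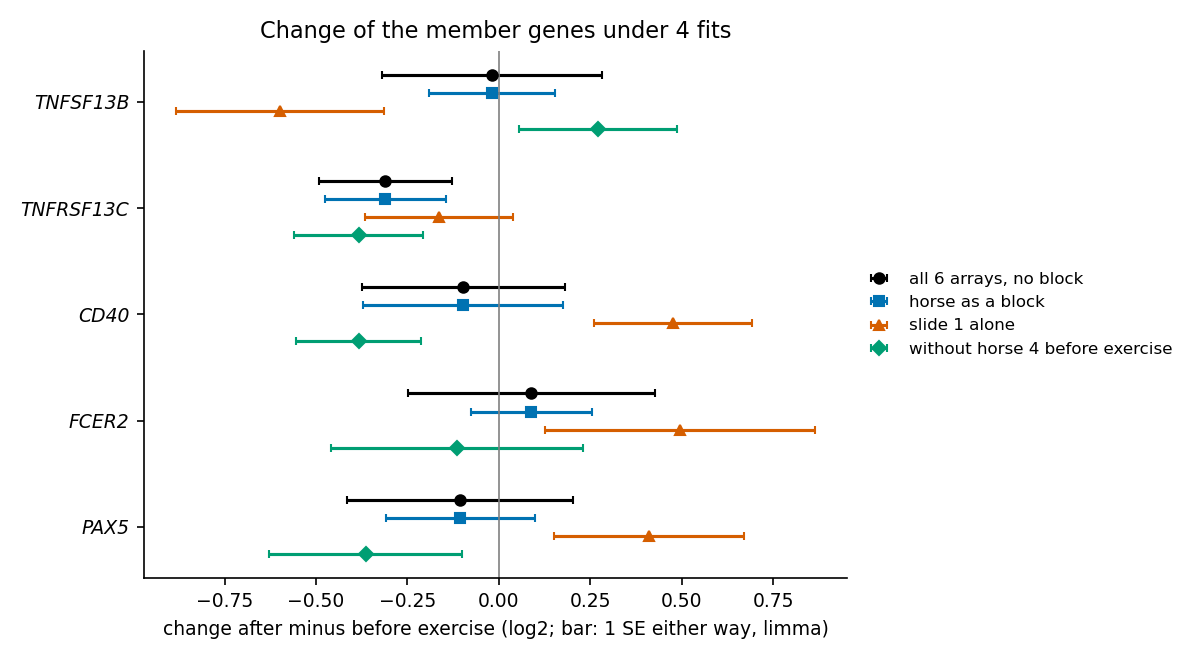
Mean change after minus before exercise (log2) of the brightest probe of each member gene under 4 limma fits, with bars of 1 SE either way; slide 1 alone has 1 array before exercise, whose spread is taken from the arrays after it. The estimates without a block and with the horse as a block coincide, while slide 1 alone and the fit without the horse 4 array before exercise fall on opposite sides of 0 for every gene but TNFRSF13C.

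The partner genes of the axis were measured in small number. Of 27 genes listed for the BAFF and APRIL family and its signalling, 1 was measured, TNFSF13, which encodes APRIL, the second ligand of this family. Of 31 genes listed for B cell surface and signalling, 2 were measured, and of 31 for B cell transcription and plasma cells 0. Over these 3 lists, 0 of the 3 measured genes passed in limma at an adjusted or an unadjusted p under 0.05. All 3 had mean changes above 0 at their brightest probe. TLR9, the receptor for unmethylated DNA, changed by 0.21 (SE 0.36) and was higher in all 3 horses, a pattern of 17.3% of all probes. TLR7, the receptor for single-stranded RNA, changed by 0.02 (SE 0.26).

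TNFSF13 was also the gene most like FCER2 in pattern. Its brightest probe stood at -1.21 and -1.30 in horse 1 before and after exercise, at -2.30 and -2.34 in horse 2, and at -2.69 and -2.31 in horse 4. Like FCER2, it was highest in horse 1 at both times and had its largest change in horse 4, at 0.38 against -0.09 and -0.04 in horses 1 and 2. The Pearson correlation with FCER2 over the 6 arrays was 0.995, the highest of 551 genes compared, and the 5 probes of TNFSF13 had correlations between 0.988 and 0.998. The arrays are pairs from 3 horses and not independent, so the value is a description. The mean change of TNFSF13 was 0.08 (SE 0.46), and between horses its 5 probes had unadjusted p between 0.0035 and 0.0091 and adjusted p between 0.18 and 0.20 in limma's F-test. The plot of FCER2, TNFSF13 and TNFSF13B by array shows the level of each relative to its own mean.

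**Figure D4:**
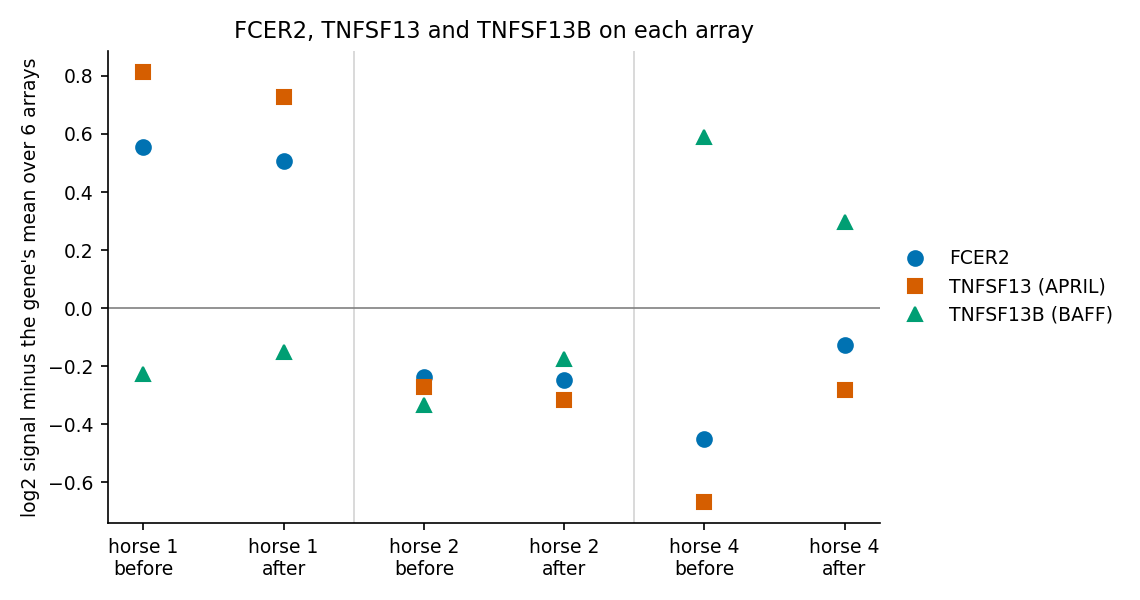
Log2 signal of FCER2, TNFSF13 and TNFSF13B on each of 6 arrays, each minus the gene's mean over the arrays. FCER2 and TNFSF13 are highest in horse 1 and lowest in horse 4 before exercise, and TNFSF13B is highest in horse 4.

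The other members were most like genes of varied kinds, by the same correlation over 6 arrays and 551 genes. PAX5 was most like TLR3, a receptor for double-stranded RNA (r = 0.94), IL15, a lymphocyte growth factor (0.93), and XIRP1 (0.92). TNFRSF13C was most like NAP1L3 (0.98), FBXO9 (0.95) and PRND (0.94), whose mean changes were -0.74, -0.16 and -0.65. TNFSF13B was most like VWF, the von Willebrand factor of platelets and endothelium (0.98), PAQR8 (0.98) and GBE1, the glycogen branching enzyme (0.97). CD40 was most like ACVR2A, an activin receptor (0.99), CAV2, a caveolin (0.98), and UBE2B, a ubiquitin-conjugating enzyme (0.97). For FCER2 the next after TNFSF13 were FABP3, a fatty acid binding protein (0.98), and CASP1, the inflammatory caspase (0.95). With 6 arrays such values are common: between 5 and 18 genes had a correlation over 0.9 with each member.

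Signals that reach B cells through CD40 and T cell help gave 15 measured genes of 32 listed. Of these, 10 had mean changes above 0 and 5 below, and 0 passed in limma at an adjusted or an unadjusted p under 0.05. Their median change was 0.08, beside 0.04 for all probes. IL6, which drives plasma cell differentiation, changed by 1.07 (SE 0.54) from spots clearly detected on 1 array from before and 2 from after the exercise. IL2, a T cell growth factor, changed by -0.30 (SE 0.25). IFNG, the type II interferon, changed by -0.49 (SE 0.48), with 0.48, 0.16 and -2.11 in horses 1, 2 and 4. Its spots were clearly detected on 3 arrays from before and 2 from after the exercise. CD74, the invariant chain of antigen presentation, changed by 0.30 (SE 0.34). CD74 is made by B cells and by monocytes. Its changes of 0.45, 0.61 and -0.15 in horses 1, 2 and 4 had the signs of TNFSF13B and not those of CD40. That pattern was found for 5 of these 15 genes and for 24.1% of all probes.

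Other cell types of the buffy coat also differed between the horses, in sums of linear levels over each marker list. Of 17 T cell genes listed, 3 were measured, with sums from 2.12 to 5.26 before and from 3.12 to 3.58 after exercise. Of 17 NK and cytotoxic cell genes 7 were measured, with sums from 60.0 to 133.7 before and from 88.8 to 106.0 after. Of 13 dendritic cell genes 3 were measured, all of the CD1 family, with sums from 2.31 to 3.20 after and from 2.32 to 3.05 before. Of 10 erythroid genes 2 were measured, both haemoglobin genes, with sums from 4.84 to 407.3 before and from 27.1 to 486.5 after. Of 10 platelet genes 3 were measured, with sums from 25.05 to 35.5 before and from 24.9 to 32.8 after. Horse 4 before exercise had the highest T cell and NK sums of the 6 arrays, with or without the most abundant gene of each list. That array also had the lowest levels of PAX5, FCER2 and CD40. TNFRSF13C, the other B cell marker, was not lowest there: at -3.40 it lay above every array after exercise. The part of the cell mixture in the member values was not tested.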

How the data were processed

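The deposited values are the spot intensity of 6 single-colour (Cy3) Agilent horse arrays, read by Agilent Feature Extraction 10.10.1.1 and background-subtracted, per the file headers. Blood (6 ml) was taken into EDTA and centrifuged, per the labels' protocols.

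From each log2 processed signal, that array's 75th percentile of 43803 non-control spots was subtracted. Outlier spots (67 to 169 an array) were left out and spots of a probe averaged. Probes well above background on at least 3 of 6 arrays were kept (29571, of which 29570 could be tested). Groups were compared without a block in limma 3.58.1 (lmFit, eBayes; R 4.3.3), with two-sided p adjusted by Benjamini-Hochberg across the tested probes. Horses were compared by a moderated F-test that allowed for exercise. Arrays with the same horse number come from the same animal and deviated together (r = 0.36, 0.40 and 0.23). A gene stands for its brightest probe.

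Genes were named by RefSeq transcript through a table of the assembly TB-T2T. Beside the members, named genes are the 4 of smallest p in each pathway list, up to 3 of smallest p in each marker list and the 3 most alike by correlation. Members and lists were chosen with earlier results of these data known. The fit was tested on simulated data. Alternatives covered background, normalization, filter, outlier spots, horse, slide, array weights and arrays left out. Median scaling, and the slide and single arrays in the comparison of horses, were added after seeing the data.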

Additional observations from a re-analysis of the deposited data

How the results depend on the processing

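No member passed the test at an adjusted p under 0.05 in any of the 22 alternatives run. Values on the other side of 0 from those reported, each with its cause not tested, were 0.073 for PAX5 with normexp, 0.069 for TNFSF13B with median scaling and 0.030 with array weights. The slide settings all rest on the horse 4 array, the 1 array before exercise on slide 1. Slide as a block and slide 1 alone give the same estimate, 0.41 for PAX5 and 0.48 for CD40. Horse and slide as blocks give the change of horse 4 itself, 0.29 and 0.59. In each, 2 members had a lower mean in place of 4. With the horse as a replicate block the changes were the same by construction, the SE of the members were between 0.17 and 0.27, and no call changed (0 probes). Median scaling moved the median of all probes to 0.13. Leaving out an array or a horse gave -0.36 to 0.18 for PAX5, -0.14 to 0.39 for FCER2, -0.38 to -0.19 for TNFRSF13C, -0.19 to 0.27 for TNFSF13B and -0.44 to 0.11 for CD40, with 2 to 4 members lower. The sign turned in 2 of 9 such fits for PAX5 (0.18 without the horse 2 array before exercise, 0.059 without horse 2). It turned in 4 of 9 for FCER2 (-0.14 without the horse 1 array after, -0.0079 and -0.11 without the horse 2 and horse 4 arrays before, -0.029 without horse 4). It turned in 4 of 9 for TNFSF13B (0.051 and 0.063 without the horse 1 and horse 2 arrays after, 0.27 without the horse 4 array before, 0.12 without horse 4). It turned in 4 of 9 for CD40 (0.057 and 0.035 without the horse 1 and horse 2 arrays before, 0.11 without horse 1, 0.043 without horse 2), and in 0 of 9 for TNFRSF13C. Probes called after exercise numbered 0 to 595 in those fits, with 595 without the horse 4 array before exercise and 20 without both arrays of horse 4. They numbered 132 with slide as a block, 122 in slide 1 alone, 117 with horse and slide as blocks and 1638 with array weights, whose estimate did not converge. Between horses, 70 probes were called, 1 with quantile normalization, with outlier spots kept or with slide as a block, and 0 to 456 with an array left out (456 without the horse 4 array after exercise).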
